A study of Mus musculus with 51 samples.

Results

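Accessible chromatin was compared between male germ cells of Hells conditional knockout mice (Hells CKO, 3 libraries) and of Hells wild-type mice (Hells wt, 2 libraries), which are 5 of the 51 samples of the series. The 5 libraries were chosen by their labels: 3 columns of the Hells ATAC count table are Hells CKO and 2 are Hells wt. ATAC-seq cuts DNA with a transposase that enters open chromatin, and the reads over a region count how often it was cut. Germ cells were enriched from testes of mice 12 to 14 days old by enzymatic dissociation. The labels name no Cre driver, no promoter and no background strain for the conditional allele, and they do not say whether the libraries came from separate animals, so the p-values measure the spread between these libraries.

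HELLS is a nucleosome remodelling ATPase of the SNF2 family. PRDM9 is a zinc-finger protein of early meiotic prophase that binds short DNA motifs and trimethylates histone H3 at lysine 4 and lysine 36 on the nucleosomes around them. The sites it marks become hotspots, where SPO11 cuts the DNA, DMC1 coats the resected ends and recombination starts. HELLS is known to act with PRDM9 in opening these sites. Without functional PRDM9, breaks form at promoters and other sites that carry H3K4me3 for other reasons. The DNA-binding fingers differ between mouse strains, and the C57BL/6J (B6) allele and the CAST allele use different hotspots.

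The table held 95109 regions after 56 duplicated ones were removed, and 95033 passed the filter on low counts. DMC1 peaks came from whole testes of Hells heterozygotes and of Hells CKO mice 6 weeks old. A region that overlapped a DMC1 peak of the heterozygotes is called a DMC1 site here, and a distal one, with no transcription start within 1000 bp, is called a hotspot. Of the 15831 heterozygote DMC1 peaks, 3774 overlapped a region, so the account covers the hotspots in this table and not every hotspot of the genome. The authors' chromatin segmentation divides the genome into 11 numbered states. Its state 7 covered 1873 regions, each a whole segment shortened by 2 bases at each end, and 1747 of these were DMC1 sites. The file gives no name for the states. The labels name the file for the C57BL/6J histone libraries, and the sources used here give no other account of what it was built from. The libraries held 8755149, 11352108 and 9091217 counts in CKO 1, 2 and 3, and 6416704 and 11243632 in wt 1 and 2.

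The sequence at the centre of 5 hotspots is shown in windows of 200 bases, while the tests used the counts of whole regions. They are the 3 hotspots with the lowest p, another lower hotspot that holds a match to a short motif, and an unchanged hotspot. Sequences are the mm10 plus strand, 5′ to 3′, and capitals mark matches to GNTGCTNCT on either strand.
chr2:179250701-179250900, intergenic, nearest start Gm14293: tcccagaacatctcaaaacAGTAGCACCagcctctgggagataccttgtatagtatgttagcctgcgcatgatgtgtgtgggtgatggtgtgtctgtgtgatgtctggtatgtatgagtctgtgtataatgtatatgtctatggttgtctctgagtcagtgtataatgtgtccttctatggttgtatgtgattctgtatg
chr12:104259701-104259900, intergenic, nearest start Serpina3i: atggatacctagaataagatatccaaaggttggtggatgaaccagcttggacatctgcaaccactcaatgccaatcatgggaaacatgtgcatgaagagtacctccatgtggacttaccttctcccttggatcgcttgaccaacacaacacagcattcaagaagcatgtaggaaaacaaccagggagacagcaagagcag
chr11:89611801-89612000, Ankfn1 intron: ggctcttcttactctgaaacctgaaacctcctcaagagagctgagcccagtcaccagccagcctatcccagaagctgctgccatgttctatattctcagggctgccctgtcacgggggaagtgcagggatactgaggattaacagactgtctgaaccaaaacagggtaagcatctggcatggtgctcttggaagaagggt
chr9:104456501-104456700, intergenic, nearest start Gm25904: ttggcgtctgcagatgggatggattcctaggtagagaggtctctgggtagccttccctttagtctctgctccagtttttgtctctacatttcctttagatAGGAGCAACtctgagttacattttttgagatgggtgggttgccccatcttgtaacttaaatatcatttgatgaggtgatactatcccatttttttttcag
chr1:86434261-86434460, intergenic, nearest start Tex44, unchanged: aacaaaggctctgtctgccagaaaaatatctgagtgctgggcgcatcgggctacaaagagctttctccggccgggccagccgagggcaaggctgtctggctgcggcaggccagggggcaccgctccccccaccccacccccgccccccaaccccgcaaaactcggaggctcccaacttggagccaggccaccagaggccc

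The motif was put together from the 8-base words most over-represented in the central 300 bases of the state 7 DMC1 sites, so its frequency there is a description. GATGCTAC or its complement was in 5.70% of the 1737 tested state 7 DMC1 sites and in 0.502% of the 90912 regions without a heterozygote DMC1 peak. GGTGCTAC was in 5.35% and 0.477%, and GAAGCTAC in 5.64% and 0.796%. GNTGCTNCT, searched on both strands, was in the central 300 bases of 22.6% of the state 7 DMC1 sites, of 8.09% of the regions without a heterozygote DMC1 peak, and of 8.36% of all regions. The matches gathered at the centre of the sites, which is where the words had been picked, so this too is a description. In the 100 bases before and after the centre, 8.35% and 10.5% of the sites held one, against 1.90% and 2.94% in the outermost 100 bases of a window reaching 500 bases to each side. In regions without a heterozygote DMC1 peak the same 4 shares were 3.01%, 2.90%, 2.13% and 2.18%. Within the sites a match did not mark the stronger change. The median log2 fold change was −1.09 for sites with one and −1.16 for sites without. Of the 322 lower hotspots described below, 45 held a match in the 200-base window of the printed length, 14.0%, against 5.80% of all regions. Most of these hotspots are among the sites from which the words were picked, so their share is not an independent result.

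Recombination hotspots were less accessible in Hells CKO, and no region without a heterozygote DMC1 peak passed the test. By edgeR's quasi-likelihood test with Benjamini-Hochberg adjustment at 0.05, 363 of 95033 regions fell in Hells CKO, 0.382%, and 0 rose. All 363 were DMC1 sites, although DMC1 sites made up 4.34% of the tested regions, and 356 of the 363 were state 7 segments. Their log2 fold changes ran from −1.22 to −2.87 with a median of −1.85. In each of the 363 the 3 CKO libraries lay below both wt libraries, which was so in 4.55% of all regions. At an unadjusted p under 0.05, 1318 regions were lower, 1.39%, and 150 higher. DESeq2 called 424 lower, 0.494% of those it gave an adjusted p, and 0 higher, and its calls included the 363. Of the 2936 tested hotspots 322 fell, 11.0%, and 0 rose, with a median log2 fold change of −0.33. Those in state 7 and those outside it are given apart in what follows, a division that was added with the data in view: the 1405 outside state 7 had a median of −0.02, and 6 fell. In bulk tissue, fewer cells with an open site and less opening in each cell cannot be told apart.

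The count depended on how the libraries were paired. Library numbers in the labels were read as placing CKO 1 with wt 1 in one series, CKO 2 with wt 2 in another, and CKO 3 in a series of its own. The labels do not say what these numbers mark. The library titles, in contrast, number CKO 3 directly after CKO 2 and wt 2, and a block built on the titles was not fitted. Libraries of one series resembled each other more than libraries of one genotype: log2 levels correlated at 0.958 between CKO 1 and wt 1 and at 0.966 between CKO 2 and wt 2, against 0.929 between the 2 wt libraries and 0.898 between CKO 1 and CKO 2. With the series as a replicate block, 1197 regions were lower, 1.26%, and 14 were higher, 0.0147%. The 1197 included the 363, and 1167 of them were DMC1 sites. Without CKO 3 and without the block 0 regions passed in either direction, with 1246 at an unadjusted p under 0.05, while without CKO 3 and with the block 1211 were lower. Without CKO 1 626 were lower, and without wt 1 132. With TMM factors taken from promoters alone, 60 were lower.

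The median count level of the state 7 DMC1 sites in Hells CKO was a little under 50% of that in wt, with no background subtracted. The 1531 distal sites had median levels of 5.83 and 5.56 counts scaled to a common library size (TMM-scaled CPM) in wt 1 and wt 2, and of 2.95, 2.27 and 2.70 CPM in CKO 1, 2 and 3. The medians of the CKO libraries, 2.64 ± 0.345 CPM (SD, n = 3), were 46.4% of those of the wt libraries, 5.69 ± 0.197 CPM (SD, n = 2), and the groups did not overlap. The median log2 fold change of these sites was −1.17, with quartiles of −1.61 and −0.63, against 0.01 over all regions. Of the 1531 sites, 316 fell, 0 rose, and 1433 had a negative fold change. With the replicate block 985 fell, with a median of −1.20. In 1208 of the sites the 3 CKO libraries lay below both wt libraries. Within the library series the median differences were −1.01 between CKO 1 and wt 1 and −1.25 between CKO 2 and wt 2, and CKO 3 lay at −1.09 from the wt mean, so the size of the change was alike without CKO 3.

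**Figure D1:**
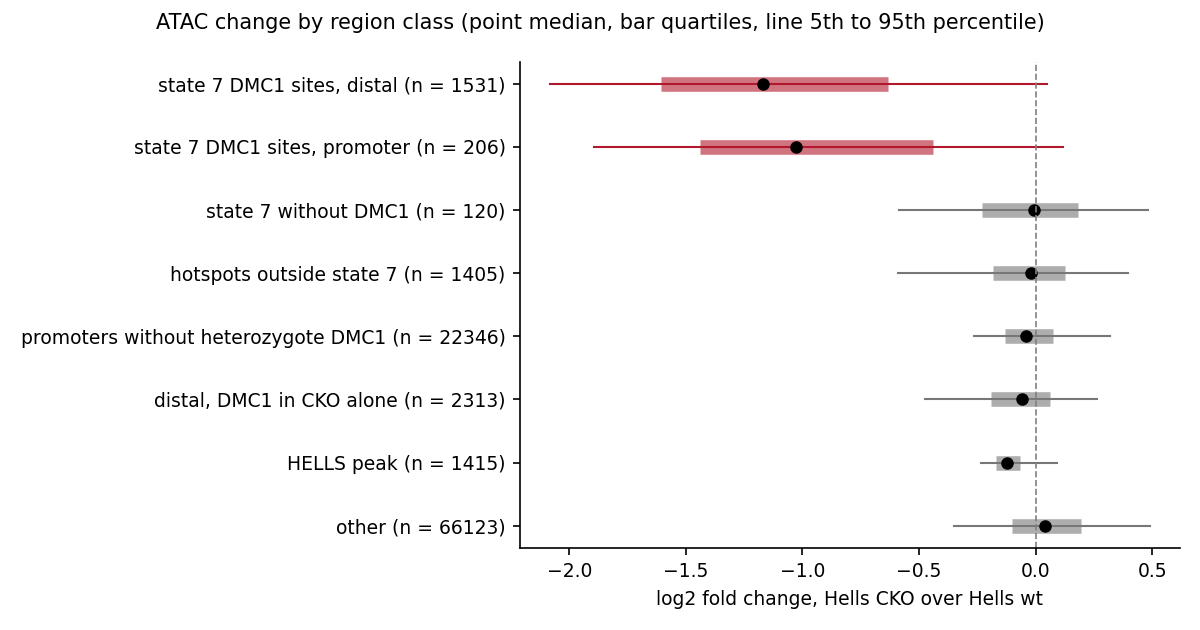
Log2 fold change of ATAC counts in Hells CKO over Hells wt by region class. Points are medians, thick bars the quartiles and thin lines the 5th to 95th percentile of the regions in each class; the 2 classes of state 7 DMC1 sites have medians of −1.17 and −1.03, and the other 6 classes lie between −0.12 and 0.04.

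The change repeated site by site. The difference between CKO 1 and wt 1 and that between CKO 2 and wt 2 use different libraries, and across the 1531 distal state 7 sites they correlated at r = 0.64 (rho = 0.65), as a description over sites that share region length and depth. Across the 1405 hotspots outside state 7 the same r was 0.21, and across the 66123 distal regions with neither a DMC1 nor a HELLS peak it was −0.03.

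**Figure D2:**
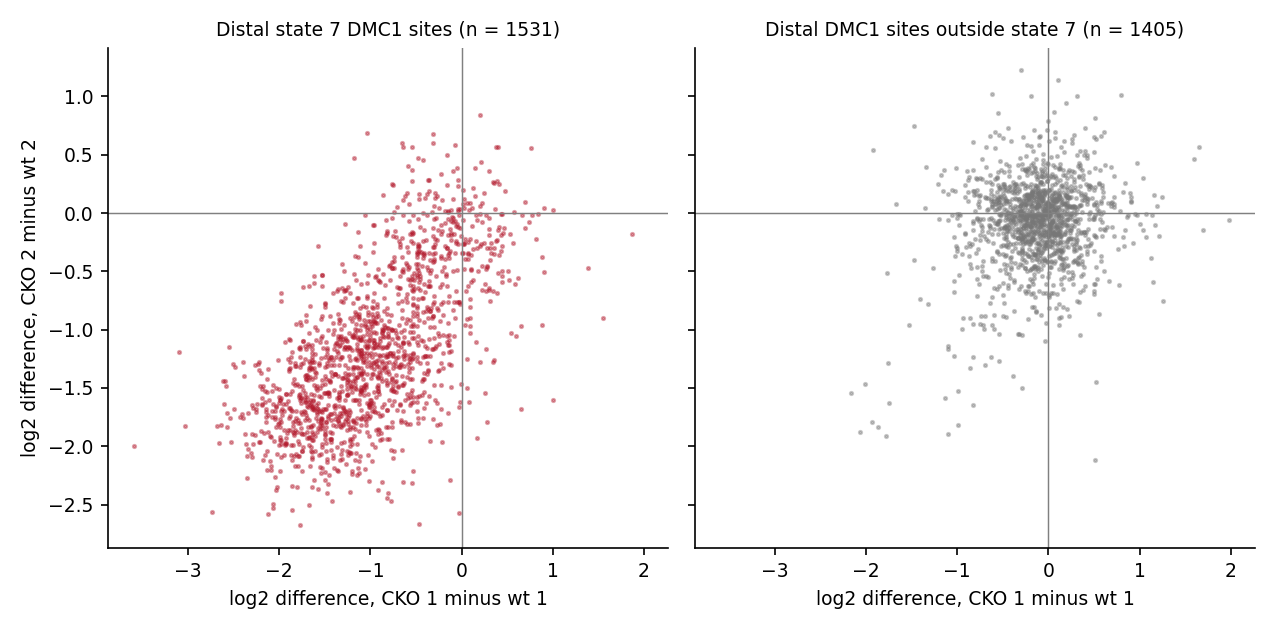
Log2 difference between CKO 2 and wt 2 (vertical) against that between CKO 1 and wt 1 (horizontal), 1 point per site. Most of the 1531 distal state 7 DMC1 sites (left) lie below 0 on both axes, with medians of −1.01 and −1.25, and most of the 1405 hotspots outside state 7 (right) lie around 0.

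The share of all counts that fell in state 7 DMC1 sites was also lower in Hells CKO, with each library scaled by its own total alone. It was 1.24% and 1.14% in wt 1 and wt 2 and 0.593%, 0.502% and 0.565% in CKO 1, 2 and 3. Every CKO library was below both wt libraries, and the exact two-sided permutation test gave p = 0.1, the smallest that 3 against 2 libraries can give. Hotspots outside state 7 took 1.04% and 1.12% of the counts in wt and 0.985%, 1.07% and 1.14% in CKO, and these overlapped (exact permutation p = 1). Promoters took 58.8% and 54.1% in wt and 59.0%, 54.8% and 51.2% in CKO, also overlapping (exact permutation p = 0.8).

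The hotspot with the lowest p lay between genes on chromosome 2 at 179249402 to 179252198 and is the first of the sequences shown. It had 32.9 and 24.9 CPM in wt 1 and wt 2 and 6.25, 4.98 and 6.06 CPM in CKO 1, 2 and 3, a log2 fold change of −2.32 (SE 0.25, adjusted p = 0.00411 by edgeR). The hotspot near Serpina3i, a serine protease inhibitor gene, on chromosome 12 at 104258402 to 104261198, had 32.9 and 19.9 CPM in wt and 5.11, 5.51 and 4.11 CPM in CKO (−2.41, SE 0.28). Both hotspots were several times lower in every CKO library than in either wt library. The intron of Ankfn1 held one on chromosome 11 at 89610602 to 89613198, with 40.5 and 24.7 CPM in wt and 8.07, 6.47 and 5.73 CPM in CKO (−2.26, SE 0.26). An intron of Nrg1, which encodes the ErbB ligand neuregulin, held one on chromosome 8 at 32248402 to 32251798, with 29.7 and 19.6 CPM in wt and 6.02, 5.07 and 4.54 CPM in CKO (−2.23, SE 0.27). An intron of Grin2b, which encodes a subunit of NMDA glutamate receptors, held one on chromosome 6 at 136070802 to 136072998, with 23.0 and 16.8 CPM in wt and 4.54, 4.11 and 4.43 CPM in CKO (−2.18, SE 0.27). Each site is named for the gene it lies in or near, with no claim on that gene's expression.

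Among the 10 hotspots of lowest p, 6 were intergenic, 3 intronic and 1 exonic, the last in Armc9, a gene of primary cilia, with 31.4 and 20.4 CPM in wt and 6.70, 5.42 and 5.19 CPM in CKO. The largest change of any lower region was at a hotspot on chromosome 2 at 98107602 to 98109398, 158821 bp from the nearest annotated start. It had 11.0 and 7.76 CPM in wt and 1.48, 1.14 and 1.19 CPM in CKO, a log2 fold change of −2.87 (SE 0.35, adjusted p = 0.00411 by edgeR). The 10 adjusted p-values lay between 0.00411 and 0.00431, and the wt 1 value was above the wt 2 value at each of the 10.

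**Figure D3:**
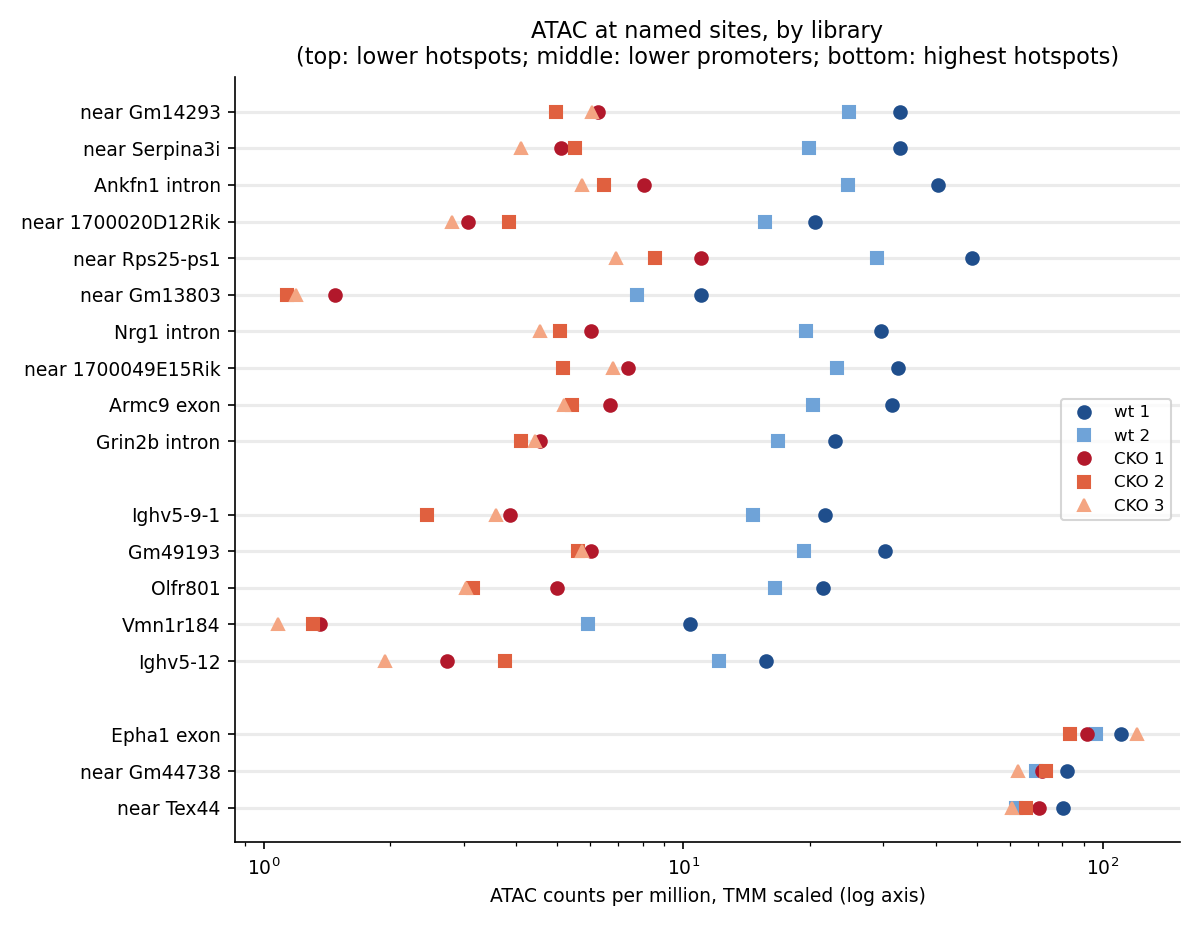
ATAC level in TMM-scaled CPM on a log axis at the 10 hotspots of lowest p (top), the 5 lower promoters of lowest p (middle) and the 3 hotspots of highest wt level (bottom), with 1 point per library. In the top and middle groups the 3 CKO libraries (red tones) lie left of both wt libraries (blue tones), and in the bottom group the genotypes overlap.

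Nearly every lower promoter was a state 7 DMC1 site near a transcription start. Of 23531 promoter regions 41 fell and 0 rose, 0.174%, and 40 of the 41 were state 7 DMC1 sites. Among the 206 state 7 DMC1 sites at promoters the median log2 fold change was −1.03, and 125 fell with the replicate block. Those of lowest p include Ighv5-9-1 and Ighv5-12, variable segments of the immunoglobulin heavy chain, Vmn1r184, a vomeronasal receptor, and Olfr801, an olfactory receptor. The Ighv5-9-1 region (chromosome 12, 113732602 to 113735798) had 21.7 and 14.6 CPM in wt and 3.86, 2.45 and 3.57 CPM in CKO, a log2 fold change of −2.46 (SE 0.31). The Vmn1r184 region (chromosome 7, 26267002 to 26269198) had 10.4 and 5.91 CPM in wt and 1.36, 1.31 and 1.08 CPM in CKO (−2.66, SE 0.37). In both regions the CKO libraries were below both wt libraries. The Olfr801 region (chromosome 10, 129673802 to 129676198) had a log2 fold change of −2.35 (SE 0.30). The noncoding gene Gm49193 (chromosome 14, 87159802 to 87162798) and Ighv5-12 (chromosome 12, 113698802 to 113701798) complete the 5 of lowest p, with log2 fold changes of −2.09 and −2.28. The adjusted p-values of the 5 lay between 0.00431 and 0.00485 (edgeR).

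Among promoters without a heterozygote DMC1 peak none passed the test without the replicate block, and with it 4 were lower and 6 higher. Of 22346, 0 fell and 0 rose, with 7 lower and 12 higher when p was not adjusted (0.05) and 0 by DESeq2. Their median level was 15.9 and 16.0 CPM in wt and 16.2, 16.2 and 15.2 CPM in CKO. The 3 promoters with the highest wt level were those of Sin3a, a co-repressor scaffold, Ppp2r3d, a subunit of protein phosphatase PP2A, and Brd2, a bromodomain protein. The Sin3a promoter had 292.8 and 223.1 CPM in wt and 242.2, 228.6 and 219.4 CPM in CKO, so that the groups overlapped, with a log2 fold change of −0.16 (SE 0.16).

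No promoter of the recombination machinery or of the other gene lists passed the test. The 16 gene lists covered meiotic, germ cell, imprinted, DNA methylation, housekeeping and somatic genes, which were chosen with earlier results of these data known, and 190 of their 223 symbols had a measured promoter, in 189 regions. Of these regions 0 passed, also with no adjustment of p, by DESeq2 or in the fit with the replicate block. Their log2 fold changes ran from −0.51 to 0.36 with a median of −0.11. None was a state 7 segment, and 12 were DMC1 sites. The Prdm9 promoter (chromosome 17, 15563330 to 15565337) had 55.6 and 46.3 CPM in wt and 52.7, 46.0 and 42.1 CPM in CKO, a log2 fold change of −0.12 (SE 0.18). The Hells promoter (chromosome 19, 38929964 to 38931950) had 46.0 and 35.1 CPM in wt and 43.6, 36.2 and 27.9 CPM in CKO (−0.17, SE 0.21). Which stretch of Hells the knockout removes is not in the labels, so the open promoter does not check it. The list of PRDM9, HELLS and their partners had its highest promoters at Zcwpw1, which reads the histone marks of PRDM9, with 134.0 and 101.0 CPM in wt and 120.8, 106.9 and 87.9 CPM in CKO, and at Ewsr1, an RNA-binding protein gene, with 101.1 and 89.2 CPM in wt and 102.9, 92.2 and 75.8 CPM in CKO. Its 14 promoters had a median of −0.13.

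Medians of the other meiotic lists were −0.10 for the 9 promoters of double-strand break formation, −0.16 for the 18 of strand invasion and crossover, −0.27 for the 7 of the synaptonemal complex and −0.19 for the 7 of meiotic entry and cohesin. The 16 PIWI pathway promoters had −0.25, and the 16 germline genes that DNA methylation silences in the soma had −0.28. With the replicate block these 6 medians lay between −0.04 and −0.09. Sycp2, which encodes an axial element protein, had 73.4 and 42.4 CPM in wt and 58.5, 43.0 and 31.3 CPM in CKO. Dazl, a germ cell RNA-binding protein, had 88.2 and 51.7 CPM in wt and 74.4, 54.3 and 42.3 CPM in CKO. At both promoters CKO 1 and wt 1 lay above CKO 2 and wt 2, and CKO 3 was the lowest. The DNA methylation list had a median of −0.03 over 9 promoters, the imprinted genes −0.06 over 26, spermatogonia −0.06 over 18, pachytene and spermatid genes −0.15 over 12 and housekeeping genes −0.11 over 15.

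The make-up of the cell preparations was read from the same lists. Promoters of 4 somatic lists (Sertoli, Leydig, peritubular with stromal and endothelial, and blood with macrophage) summed to 998.1 and 983.8 CPM in wt and to 1029, 995.0 and 1033 CPM in CKO over 34 regions. The blood list had 2 measured promoters for its 7 genes. Nearly all of its counts came from the Cd68 region, which had 95.1 and 88.5 CPM in wt and also spans Eif4a1 and Mpdu1. The 7 germ cell lists summed to 3030 and 2288 CPM in wt and to 2820, 2281 and 1908 CPM in CKO over 79 regions, lowest in CKO 3. The part of this difference in the results was not tested, and the within-series medians given above do not use CKO 3. Somatic promoters such as those of Amh, the Sertoli cell hormone (76.3 and 71.1 CPM in wt, 92.1, 62.7 and 85.0 CPM in CKO), and Gata4 (60.6 and 64.3 CPM in wt, 56.0, 65.9 and 63.9 CPM in CKO) were open in every library, and no promoter of the lists was at 0.

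Hotspots that had a DMC1 peak in Hells CKO as well showed the larger loss of accessibility, a difference that was described and not tested. Of the distal state 7 sites, 427 had a DMC1 peak in both the heterozygote and the Hells CKO list and 1104 in the heterozygote list alone. Their median log2 fold changes were −1.67 and −0.98. Of the 427, 197 fell, 46.1%, and of the 1104, 119 fell, 10.8%. Levels in wt were 7.94 and 6.79 CPM at the former and 5.19 and 5.11 CPM at the latter. In CKO they were 2.95, 2.27 and 2.49 CPM at the former and 2.95, 2.36 and 2.81 CPM at the latter. Sites with DMC1 in both lists were longer, with a median of 1996 bp against 1396 bp. Per kilobase they had 4.38 and 3.70 CPM in wt and 1.59, 1.23 and 1.29 CPM in CKO. Sites with DMC1 in the heterozygote list alone had 3.66 and 3.61 CPM per kilobase in wt and 2.03, 1.61 and 1.95 in CKO. The part of region length in the difference was not tested. With the replicate block 388 of the 427 and 597 of the 1104 fell. DMC1 was given as 1 peak list per genotype, so its replicates could not be compared.

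Because sites with more counts pass a test more easily, the 1531 sites were divided into 4 groups of equal size by mean wt level. From the lowest group to the highest the median log2 fold change was −0.53, −1.08, −1.23 and −1.62, and 0, 14, 79 and 223 sites fell. The wt level enters the fold change too, so the order is a description. The groups sort the sites by wt level and not by region length. Within each group the sites with DMC1 in both lists had the lower median: −1.27 against −0.45 in the lowest, −1.51 against −0.99 in the second, −1.49 against −1.08 in the third and −1.82 against −1.37 in the highest. In the highest group 143 of 185 sites with DMC1 in both lists fell, 77.3%, and 40.4% of those with DMC1 in the heterozygote list alone.

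**Figure D4:**
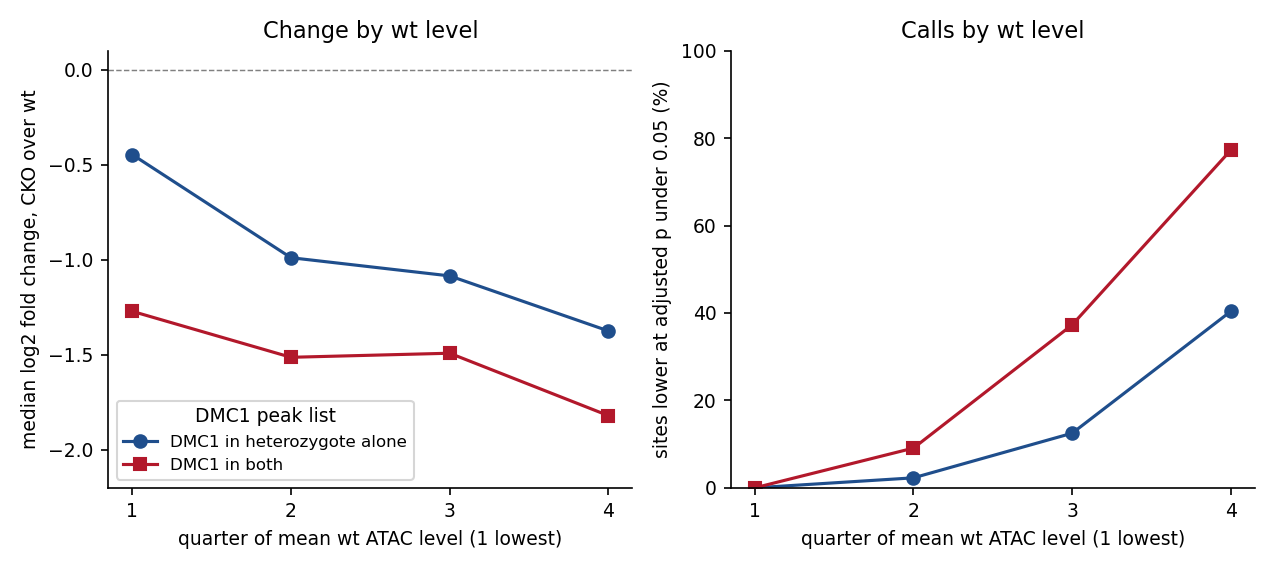
Median log2 fold change (left) and percent of sites that fell (right) for distal state 7 DMC1 sites in 4 equal groups by mean wt ATAC level (1 lowest), split by whether Hells CKO also had a DMC1 peak. Sites with a peak in both lists (squares) lie lower in each group on the left, from −1.27 to −1.82, than sites with a heterozygote peak alone (circles), from −0.45 to −1.37.

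No region with DMC1 in Hells CKO alone passed the test without the replicate block. With it 2 distal ones were lower and 1 promoter was higher. The 2313 distal ones had 6.32 and 6.53 CPM in wt and 6.70, 6.12 and 5.62 CPM in CKO, with a median log2 fold change of −0.06. Of these 0 fell and 0 rose, with 15 lower and 0 higher before adjustment (p under 0.05) and 0 by DESeq2. The 7717 promoters of this kind had 40.8 and 34.7 CPM in wt and 39.1, 35.4 and 31.4 CPM in CKO, and 0 passed, with 3 lower and 1 higher before adjustment and 0 by DESeq2. They were more open than the 14629 promoters with no DMC1 peak, at 8.59 and 9.08 CPM in wt, before any change.

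The PRDM9 allele gave a second readout of the same sites in other libraries. ATAC of B6 mice that carry the CAST allele of Prdm9 (KI, n = 2) was compared with ATAC of C57BL/6J (B6, n = 2), and 1856 of 81887 regions were lower in KI, 2.27%. Of the distal state 7 sites 1344 overlapped a region of that table, and 998 of them were lower in KI, with a median of −1.49. The labels name the segmentation for C57BL/6J libraries, so the choice of state 7 sites leaned on B6. That choice favours lower values in KI, and the count is a description. The 998 had a median of −1.43 in Hells CKO, and 310 of them fell. The 346 that were not called in KI had −0.53, and 4 fell. Across the 1344 sites the 2 log2 fold changes correlated at r = 0.77 (rho = 0.74), a description over sites that share length and depth, while the comparisons share no library. In B6 and KI the labels' library series follows the strain, so series and strain cannot be told apart there.

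Among the 1405 hotspots outside state 7, 63 were lower in KI. These had a median of −0.61 in Hells CKO, and 6 of the 63 fell, or 28 with the replicate block. The 908 others measured in KI had a median of −0.03, and 0 fell, or 12 with the block. Those 6, with 1 promoter, are the 7 lower regions outside state 7, and they were looked up after their values were seen. One of them, between genes on chromosome 2 at 119494002 to 119495281, had 26.3 and 17.1 CPM in wt and 7.04, 4.63 and 3.78 CPM in CKO (log2 fold change −2.07, SE 0.30). Another, in an intron of Tex14, a gene of germ cell intercellular bridges, on chromosome 11 at 87420402 to 87420959, had 7.94 and 5.20 CPM in wt and 2.16, 1.22 and 1.19 CPM in CKO (−2.09, SE 0.38). The promoter was that of the noncoding gene Gm34557. In KI, 5847 regions were higher, 7.14%, and the 520 regions of the Hells table that matched them and had no heterozygote DMC1 peak had a median of 0.04 in Hells CKO with 0 called, or 1 lower with the block.

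H3K4me3 was lower in the 3 Hells CKO libraries than in 1 Hells wt library at most of these sites. The single wt library has no spread of its own. It was taken to have that of the remaining libraries of the fit, which are 3 Hells CKO, 1 Spo11/+ and 2 Spo11/Spo11 libraries. The calls rest on that assumption. By it 9223 of 78959 regions were called lower, 11.7%, and 1414 of the 1531 distal state 7 sites, with median levels of 6.23 CPM in the wt library and 1.15, 1.39 and 0.843 CPM in the 3 CKO libraries and a median log2 fold change of −2.44. The ATAC change followed the H3K4me3 change weakly across sites (r = 0.26, rho = 0.16). State 7 segments without a heterozygote DMC1 peak had unlike values in the 2 readouts. The 120 had an H3K4me3 median of −1.18, with 34 of them lower. Their ATAC median was −0.01 with 0 called, 2 lower before adjustment, 0 by DESeq2 and 2 lower with the replicate block. Their ATAC level was 2.84 and 2.82 CPM in wt and 2.73, 2.45 and 2.81 CPM in CKO.

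**Figure D5:**
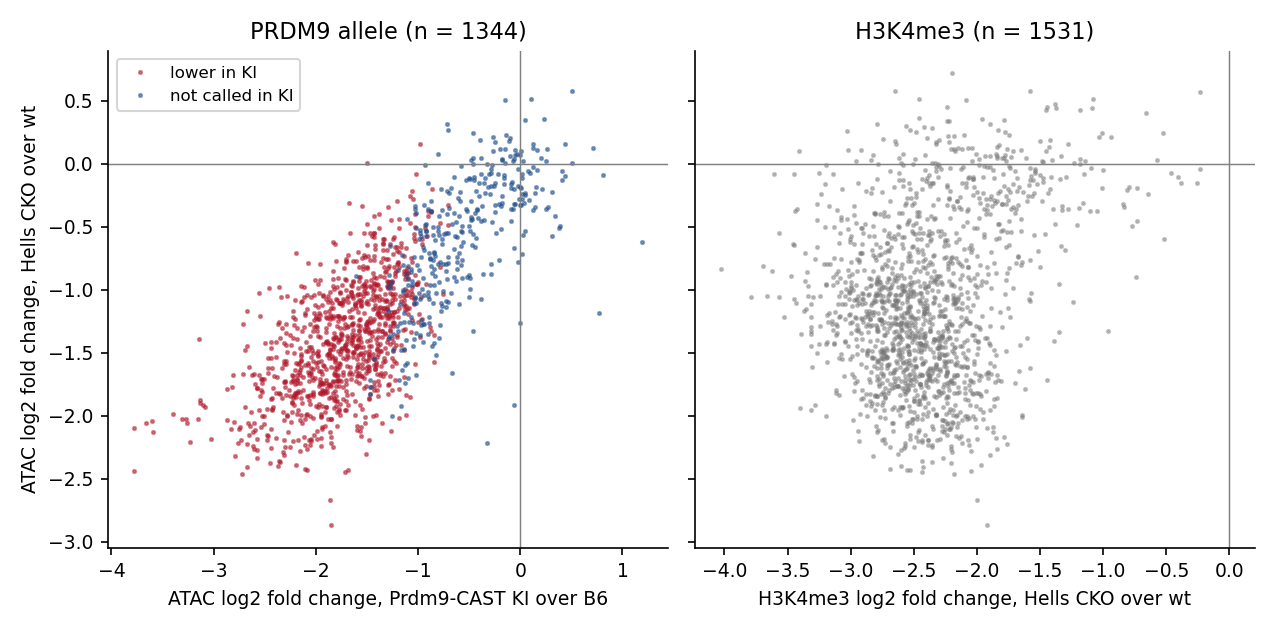
ATAC log2 fold change in Hells CKO over Hells wt (vertical) at distal state 7 DMC1 sites against the ATAC change with the CAST allele of Prdm9 (left, 1344 sites) and against the H3K4me3 change in Hells CKO (right, 1531 sites). On the left the sites lower in KI (red) reach farther down, with a median of −1.43, than those not called in KI (blue), with −0.53.

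The 3 hotspots of highest wt level lay outside state 7 and did not pass the test. One spans an exon of Epha1, a receptor tyrosine kinase, and part of Zyx, a focal adhesion protein, on chromosome 6 at 42357018 to 42363546, with 110.4 and 96.2 CPM in wt and 91.7, 83.5 and 120.6 CPM in CKO. One lay between genes on chromosome 7 at 73616760 to 73619644 under a HELLS peak, with 82.0 and 69.4 CPM in wt and 71.5, 73.3 and 62.8 CPM in CKO. The third, near Tex44 on chromosome 1 at 86432611 to 86436110 and shown above, had 80.4 and 62.1 CPM in wt and 70.4, 65.5 and 60.9 CPM in CKO. In each the genotypes overlapped, with log2 fold changes of −0.07, −0.13 and −0.11. Among hotspots outside state 7, the 361 in state 1 had a median of −0.10 with 5 lower, the 366 in state 3 had 0.03 with 1 lower, and in each of the other states 0 passed.

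No region with a HELLS peak passed the test without the replicate block, and 2 were lower with it. The HELLS peaks were mapped in testes of KI mice, which use CAST hotspots. Of 2945 hotspots 8 overlapped a HELLS peak, against 1415 of all 95109 regions, and the reason was not tested. Of 1415 regions with a HELLS peak, 1264 of them promoters, 0 fell and 0 rose, 3 were lower and 0 higher before adjustment, and 0 were called by DESeq2. They had 57.2 and 45.1 CPM in wt and 52.7, 46.2 and 40.9 CPM in CKO, with a median of −0.12, which was −0.03 with the replicate block, 0.050 without wt 1, −0.28 without wt 2, −0.21 without CKO 1 and −0.038 without CKO 3. The 130 distal ones without a DMC1 peak had a median log2 fold change of 1.64 in KI and of 0.04 in Hells CKO.

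Distal regions with neither DMC1 nor HELLS peaks gave no calls in any of the 11 states. Of the 66123, 25 were lower and 136 higher before adjustment, and 0 were called by DESeq2. Medians by state lay between −0.05 in state 7 and 0.09 in state 6. With the replicate block 24 were lower and 8 higher. The 14 regions higher with the block, named after their values were seen, lay in promoters of Nin, Tacr3, Sync, Nlrp4b, Stox2 and Gm3336 and in 8 distal places, and in the fit without the block their adjusted p-values were 0.521 or more (edgeR). The Nin promoter, a centrosomal protein gene, had 4.21 and 2.38 CPM in wt and 7.61, 4.89 and 8.11 CPM in CKO.

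Chromosome X held lower regions too. Of its 2158 regions 8 fell and 0 rose, 0.371%, and all 8 were among its 36 state 7 DMC1 sites. These had 4.94 and 4.10 CPM in wt and 1.36, 1.31 and 1.51 CPM in CKO and a median of −1.72, against −1.14 for such sites on all chromosomes, a difference that was not tested. One in an intron of Shroom4 (6608802 to 6610798) had 6.97 and 5.20 CPM in wt and 0.909, 1.31 and 1.08 CPM in CKO, a log2 fold change of −2.42 (SE 0.38, adjusted p = 0.0082 by edgeR). One over an exon of Stag2, a cohesin subunit gene, and one over an exon of Gm595 had −2.03 (SE 0.34) and −2.19 (SE 0.37). The 1810 regions of chromosome X without a heterozygote DMC1 peak had a median of −0.01, with 0 called, or 3 lower with the replicate block. By autosome the state 7 median lay between −0.97 on chromosome 9 and −1.37 on chromosome 3, and 9 to 31 such sites fell on each.

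The distal state 7 sites, lower or not, differed from other distal regions in length and sequence. The 1531 distal state 7 sites had a median length of 1596 bp, 43.8% GC, 7.88 CpG per kb and 19.5% repeat-masked sequence, against 700 bp, 46.9%, 11.5 and 12.4% in the 66123 other distal regions. State 7 regions are whole segments, which sets their length. Their centres lay a median of 110.5 bp from the centre of the DMC1 peak, which had a median width of 3264 bp. Across these sites longer regions and wider DMC1 peaks went with a larger loss (rho of −0.61 and −0.64 with the log2 fold change). GC content (0.29), CpG density (0.25) and repeat content (−0.18) went with it less. The 539 intergenic sites had a median of −1.38, the 680 intronic ones −1.07 and the 312 exonic ones −1.09, differences that were not tested. Per kilobase the sites held 3.83 and 3.63 CPM in wt and 1.91, 1.46 and 1.74 CPM in CKO.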

How the data were processed

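Libraries were grouped by their labels into Hells CKO (n = 3) and Hells wt (n = 2). The authors deposited unnormalised read counts for each region. BWA 0.7.15, Bowtie 0.12.9, MACS 1.4.2 and the mm10 build are named by the submitters' processing notes, with no role for each. Peak and segmentation files were used for positions alone. Of the 95165 rows, 56 duplicates were removed, and filterByExpr kept 95033 regions. Counts were scaled by TMM and fitted with edgeR 4.0.16 in R 4.3.3. Its quasi-likelihood test was used with Benjamini-Hochberg adjustment at 0.05. The standard error is the log2 fold change divided by the square root of F. DESeq2 1.42.0, other scalings, no filter, the library series as a replicate block and each library left out were alternatives. The fits were run on simulated data. For the fit without the block these data held no effect of library series, so they do not show how it behaves with one. Deposited counts set the precision: a total of 6416704 to 11352108 per library and a biological coefficient of variation of 0.218.

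Regions were annotated with GENCODE M21 (promoter: within 1000 bp of a start), by an overlap of at least 1 bp with peaks and by the state of largest overlap. Coordinates are as the files give them, and sequences were read from GRCm38, whose chromosome lengths fit the mm10 segmentation. Regions were named by rule: the 10 lower of lowest p, the 5 lower promoters of lowest p, 3 on chromosome X, the 3 hotspots and promoters of highest wt level, the Hells and Prdm9 promoters, and the 2 highest promoters of each gene list, of which some are given. The members and lists were chosen with earlier results of these data known. Replicates of one genotype differed by more than sampling noise. Of the H3K4me3 columns, 2 matched no sample and were not used.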

Additional observations from a re-analysis of the deposited data

How the results depend on the processing

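Pairing and single libraries moved the counts, while the median change of the state 7 DMC1 sites, −1.14, lay between −1.03 and −1.27 in every fit. With the library series as a replicate block the counts were 1197 lower and 14 higher regions, 1026 lower hotspots, 1110 lower state 7 DMC1 sites and 30 lower regions without a heterozygote DMC1 peak. With the block and without CKO 3 they were 1211, 13, 1037, 1123 and 30. By the library numbers CKO 3 is alone in its series, so with the block it adds nothing to the comparison. The pairing rests on library numbers in the labels and on 2 pairs, which do not show that libraries share animals. With TMM factors from promoters 60 regions, 53 hotspots and 59 state 7 DMC1 sites were lower, and all 60 were among the 363. Leaving out 1 library at a time gave 0 to 626 lower regions, 0 to 1 higher, 0 to 563 lower hotspots, 0 to 613 lower state 7 DMC1 sites, 0 to 3 lower regions without a heterozygote DMC1 peak and a hotspot median of −0.34 to −0.45. The lowest counts were without CKO 3 and, at 132, 121 and 130, without wt 1, and the highest without CKO 1. All 363 lower regions kept a negative fold change in each of these fits. With a DMC1 overlap of at least 50% of the region the hotspot median was −0.59. With state 7 segments left out 6 hotspots were lower and the median was −0.019. Medians near 0 changed sign: promoters had 0.020 without wt 1 and 0.0088 with TMM factors from promoters, and HELLS peak regions had 0.050 without wt 1. RLE scaling, library size alone, no filter, DESeq2 and kept duplicates gave 446, 325, 367, 424 and 386 lower regions. The cause of these differences was not tested. Among the 383 distal state 7 sites of lowest wt level 0 passed and 85 did with the block, at a median of −0.53. These sites had both the lowest counts and the smallest median change, so what depth limits there cannot be told apart from the size of the change.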
